A study of Mus musculus with 3 samples.

Results

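Histone cluster genes were taken as all genes whose name in the deposited files starts with Hist1h, Hist2h, Hist3h or Hist4h, the older mouse names of the clustered histone genes. Of 543367 regions in the table that compares both viruses, 60 were annotated to such a gene, and 32 of these were among the table's 41781 promoter regions. They carried the names of 31 genes, of 19050 named in that table. The GENCODE M21 annotation of the same genome build (GRCm38, called mm10 in the deposited files) holds 70 histone cluster genes, 67 protein-coding genes and 3 pseudogenes, so 39 of them gave their name to no region. Names were found for 26 of 56 genes of the Hist1 cluster on chromosome 13, 4 of 10 genes of Hist2 on chromosome 3, 0 of 3 genes of Hist3 on chromosome 11 and for Hist4h4, the single gene of Hist4 on chromosome 6.

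Clustered histone genes encode the linker histone H1 and the core histones H2A, H2B, H3 and H4, the proteins around which DNA is wound into nucleosomes. Most are short genes without introns that are transcribed during DNA replication, under the coactivator Npat, and whose mRNAs end in a stem-loop bound by Slbp instead of a poly(A) tail. Genes for H2A and H2B often lie head to head and share the DNA between their starts as a promoter. Ets-1 belongs to the ETS family of transcription factors, which bind DNA around the core word GGAA.

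The cells were Min6, a mouse insulinoma line that secretes insulin, kept in medium with 25 mM glucose and infected for 24 h with the control adenovirus Ad-GFP, which carries green fluorescent protein, or with Ad-Ets-1, which overexpresses Ets-1. Chromatin was fixed in 1% formaldehyde for 10 min and precipitated with an antibody against Ets1 in both infections, so the Ad-GFP library reports on the Ets-1 that these cells make themselves. An input library of chromatin that was not precipitated came from the same cell line, and the labels do not say which virus, if any, its cells received. Each group was 1 library of 1 cell line, so replicates cannot bear on any difference below and p-values are left out.

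Library totals were 1938473 reads with Ad-Ets-1, 1775757 with Ad-GFP and 3937471 in the input. Of the listed regions, 91.0% held at most 2 reads with Ad-Ets-1, 89.3% with Ad-GFP and 99.9% in the input. The Ets1 gene gave no check of overexpression, since its 15 regions held no exon and no more than 2 reads in any library. Among all regions 61.1% had an identifier of a nearest gene but no symbol, and the rule on names cannot reach those.

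Sequences of the members that recur in the results are shown first. They were read from the RefSeq sequence of GRCm38 along the strand of the named gene, and capitals mark the 8-letter words CCGGAAGT and CAGGAAGT of ETS factors, the octamer ATTTGCAT known from H2B promoters, CCAAT, also on the other strand as its reverse complement, and TATAAA. The pair below shows stretches that end at a gene start, from Hist2h2aa1 (chr3:96245312-96245496, plus strand) and Hist1h2bm (chr13:21721810-21722043, plus strand). The Hist2h2aa1 promoter region had the lowest deposited q of all histone promoter peaks. Here q is a p-value adjusted for multiple testing in peak calling. The Hist1h2bm stretch holds the octamer and 3 CCAAT words.
Hist2h2aa1 before the start: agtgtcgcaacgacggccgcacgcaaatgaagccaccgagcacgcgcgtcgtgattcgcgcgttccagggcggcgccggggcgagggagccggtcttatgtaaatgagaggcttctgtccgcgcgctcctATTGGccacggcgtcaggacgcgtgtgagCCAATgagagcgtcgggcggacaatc
Hist1h2bm before the start: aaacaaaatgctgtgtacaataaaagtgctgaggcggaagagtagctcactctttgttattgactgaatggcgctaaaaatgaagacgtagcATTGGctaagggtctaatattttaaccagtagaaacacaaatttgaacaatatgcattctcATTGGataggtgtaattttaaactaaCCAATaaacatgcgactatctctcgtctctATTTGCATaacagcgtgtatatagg

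The next 3 are whole promoter regions. Hist1h4i (chr13:22041534-22041782, minus strand) lies upstream of its gene and was read with Ad-Ets-1 alone. Hist1h4c (chr13:23697309-23697557, minus strand), past the 3′ end of its gene, and Hist1h1t (chr13:23693699-23693936, plus strand), upstream of its gene, each hold CAGGAAGT.
Hist1h4i promoter region: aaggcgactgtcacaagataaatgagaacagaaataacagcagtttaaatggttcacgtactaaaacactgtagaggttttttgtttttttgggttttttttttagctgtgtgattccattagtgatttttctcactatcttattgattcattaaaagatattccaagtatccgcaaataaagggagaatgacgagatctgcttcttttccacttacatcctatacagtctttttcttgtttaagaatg
Hist1h4c promoter region: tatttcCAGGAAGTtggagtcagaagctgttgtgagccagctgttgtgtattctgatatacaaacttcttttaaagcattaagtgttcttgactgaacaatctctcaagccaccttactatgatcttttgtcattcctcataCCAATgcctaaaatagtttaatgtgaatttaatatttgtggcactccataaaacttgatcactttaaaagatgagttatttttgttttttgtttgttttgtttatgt
Hist1h1t promoter region: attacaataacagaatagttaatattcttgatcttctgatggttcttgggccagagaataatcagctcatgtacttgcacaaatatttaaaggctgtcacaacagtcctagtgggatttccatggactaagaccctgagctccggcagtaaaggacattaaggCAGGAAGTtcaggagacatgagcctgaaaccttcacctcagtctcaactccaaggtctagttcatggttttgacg

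The last lies downstream of Hist1h1b (chr13:21777216-21777464, minus strand). It opens with a run of GT repeats and held the histone peak with the lowest q in the Ad-GFP list.
Hist1h1b downstream, 6 reads with Ad-GFP: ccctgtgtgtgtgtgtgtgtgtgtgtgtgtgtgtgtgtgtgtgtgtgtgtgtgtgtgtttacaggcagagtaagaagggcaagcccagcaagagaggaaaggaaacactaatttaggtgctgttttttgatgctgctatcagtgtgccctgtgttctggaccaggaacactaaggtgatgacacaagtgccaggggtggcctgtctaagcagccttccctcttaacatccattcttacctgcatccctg

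Promoter regions of histone cluster genes held few reads in every library, and the sums over all of them did not differ between the viruses beyond counting error. The 32 regions, 10340 bp in all, summed to 65 reads with Ad-Ets-1, 80 with Ad-GFP and 9 in the input. After scaling to the library totals the ratio of Ad-Ets-1 to Ad-GFP was 0.744 (95% interval 0.462 to 1.23). Over all promoter regions the same ratio was 0.948 (0.940 to 0.955), and 0.786 (0.774 to 0.798) over the 41771 of them with at most 1000 reads. The histone interval holds both values. Intervals are exact binomial ones on fragments, 2 reads to a fragment in the precipitated libraries, and cover counting error only. Without molecular identifiers, PCR copies of a molecule count as separate reads.

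Reads per region were compared with promoter regions at large, where 10 regions with over 1000 reads set the order. With those included, all promoter regions had means of 6.16 reads with Ad-Ets-1, 5.95 with Ad-GFP and 1.59 in the input, above the histone means. Without them the histone means were the higher in all 3 libraries. The histone mean was 2.03 reads with Ad-Ets-1 against 1.42 over all promoter regions with at most 1000 reads, 2.50 against 1.66 with Ad-GFP and 0.281 against 0.180 in the input. Per kilobase of listed sequence the histone reads were 6.29, 7.74 and 0.870 in the same order, against 5.01, 5.84 and 0.633 without the 10 regions and 21.6, 20.9 and 5.61 with them. Medians were 2.00 and 2.00 reads with Ad-Ets-1 and Ad-GFP at histone promoters, and 0 and 2.00 over all promoter regions. Relative to input, the summed histone promoter reads were 14.7 times the input with Ad-Ets-1 (6.97 to 35.4) and 19.7 times with Ad-GFP (9.41 to 46.2). The matching values were 7.84 and 8.28 over all promoter regions and 16.1 and 20.5 over those with at most 1000 reads. Every region is in the table because it was called in at least 1 precipitated library, so a level above input is in part set by how regions were listed.

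**Figure D1:**
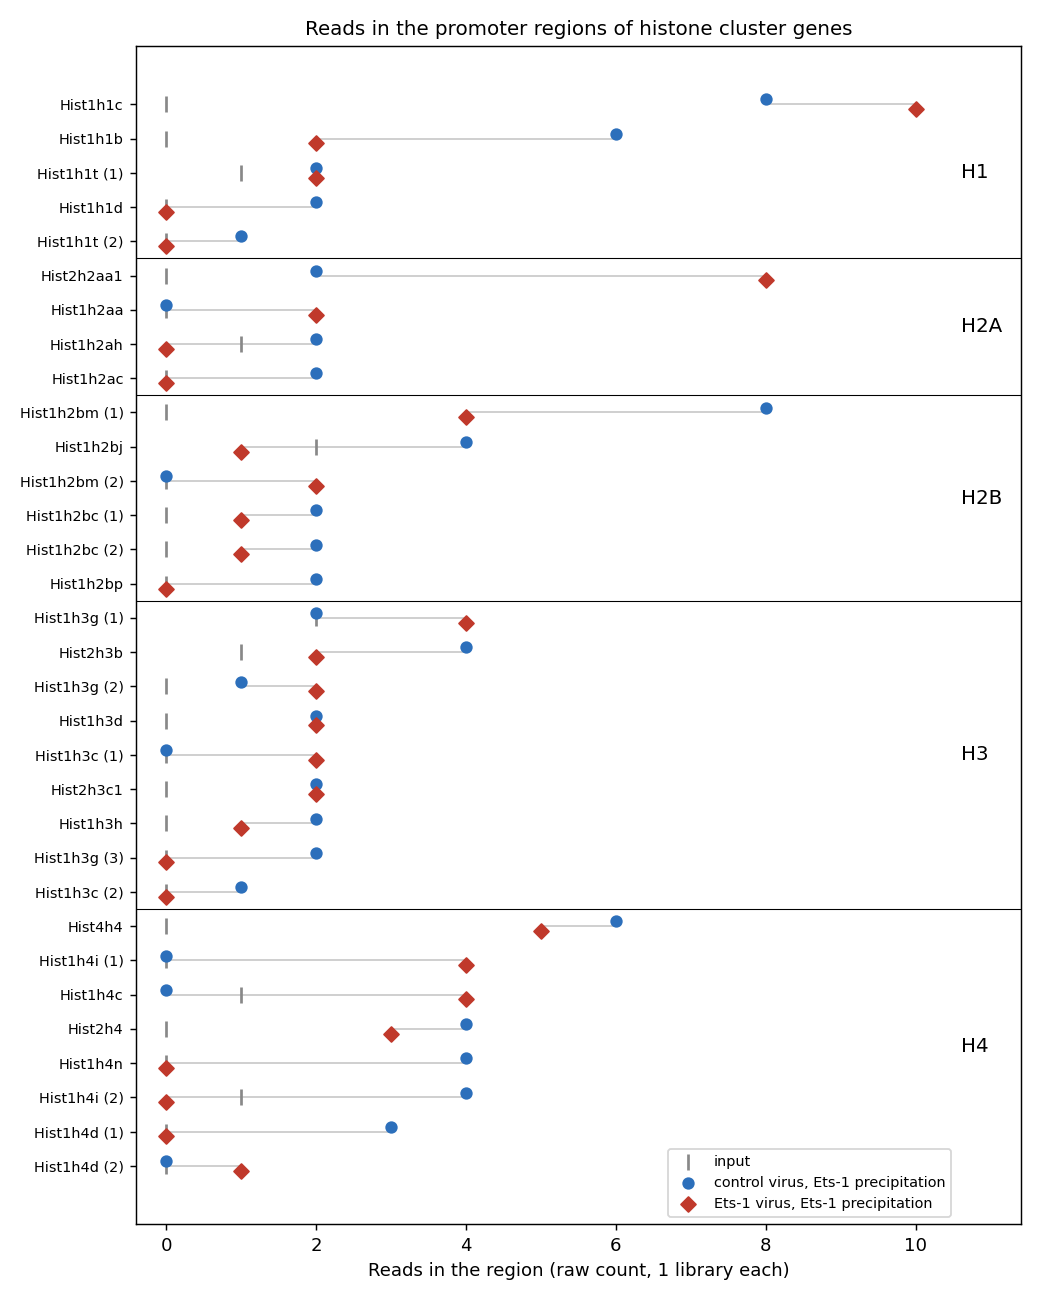
Raw reads in each of the 32 promoter regions of histone cluster genes, by histone type (horizontal axis: reads in the region; diamonds: Ad-Ets-1, drawn as Ets-1 virus, circles: Ad-GFP, drawn as control virus, grey ticks: input; 1 library each, no error bars; a number in brackets tells apart regions of the same gene). Only 5 regions reach 5 reads in a precipitated library, those of Hist1h1c, Hist1h1b, Hist2h2aa1, Hist1h2bm and Hist4h4.

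By histone type, all ratios between the viruses had intervals that span 1. Promoters of the linker histone H1 summed to 14 reads with Ad-Ets-1 and 19 with Ad-GFP, a ratio of 0.675 (0.207 to 1.87). H2A promoters held 10 and 6 reads (1.53, 0.297 to 9.83) and H2B promoters 9 and 18 (0.458, 0.134 to 1.69). Differences of this size between histone types are not detectable at this depth. H3 promoters held 15 and 16 reads (0.859, 0.300 to 2.80) and H4 promoters 17 and 21 (0.742, 0.275 to 1.99). By cluster, Hist1 promoters held 45 and 62 reads (0.665, 0.378 to 1.20), Hist2 promoters 15 and 12 (1.15, 0.372 to 4.27) and the Hist4h4 promoter 5 and 6. Per kilobase of listed sequence, H2A promoters held 8.92 reads with Ad-Ets-1 and 5.35 with Ad-GFP, and H2B promoters 4.44 and 8.87.

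Calls in the deposited lists were compared next. Of the 32 promoter regions, 5 were called in both lists, 8 in the Ad-Ets-1 list alone and 19 in the Ad-GFP list alone. Regions called in both made up 15.6% (exact 95% interval 5.28 to 32.8), against 6.61% of all promoter regions. The 5 were those of Hist1h1c, Hist1h1b, Hist2h2aa1, Hist1h2bm and Hist1h3d. Regions with at least 5 reads in a precipitated library also made up 15.6% (5 of 32), against 6.24% of all promoter regions. In both cases the background lies within the interval, and 4 of the 5 regions are the same.

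Among those 5 regions with at least 5 reads, 1 was at least 2-fold higher with Ad-Ets-1 by the deposited ratio of scaled reads, that of Hist2h2aa1, and 1 at least 2-fold lower, that of Hist1h1b. The deposited ratio adds 1 to each count. Without that addition the Hist1h2bm region, with a ratio of 0.458, was also more than 2-fold lower. Over all promoter regions with as many reads, 51.5% were at least 2-fold higher and 36.3% at least 2-fold lower. At such counts a 2-fold difference is common, and 1 of 5 in either direction is not a result about histone genes.

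Linker histone genes, which encode the H1 proteins that bind DNA between nucleosomes, had the best read histone promoter. The Hist1h1c region (chr13:23739130-23740121) lies within the gene and held 10 reads with Ad-Ets-1, 8 with Ad-GFP and 0 in the input. Both viruses gave nearly the same level, with a ratio of 1.15 (0.246 to 5.77), and the authors' deposited lists put its fold over local background at 2.76 and 2.78, with q of 0.285 and 0.274. Around it lay 4 distal regions with 1 to 2 reads with Ad-Ets-1 and 0 with Ad-GFP. Over all 5 regions Hist1h1c held 17 and 8 reads.

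Hist1h1b is another linker histone gene, and not all of its regions are described. Its promoter region (chr13:21779819-21780477), which covers most of the gene, held 2 reads with Ad-Ets-1 and 6 with Ad-GFP. The downstream region printed above, with the GT repeats, held 0 reads with Ad-Ets-1, 6 with Ad-GFP and 0 in the input, and its q in the Ad-GFP list was 0.0258. Of its 50-bp words (all stretches of 50 bases in it) 90.5% occur once in the genome, and the most frequent, in the repeat, occurs 84873 times. A distal region of Hist1h1b (chr13:21774628-21775129) added 4 and 0 reads.

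At Hist1h1d, also a linker histone gene, most reads lay downstream of the deposited promoter region, which refers to the GENCODE start. The RefSeq promoter of Hist1h1d (chr13:23554782-23555081) lies between that region and the exon region below. The reads are thus not shown to lie away from every annotated start. The 3′ UTR region (chr13:23555950-23556435) held 8 reads with Ad-Ets-1, 4 with Ad-GFP and 0 in the input. Its ratio was 1.83 (0.263 to 20.3), and the authors' deposited Ad-Ets-1 list gave it a fold of 3.60 and a q of 0.0376. All of its 50-bp words occur once in the genome. An exon region (chr13:23555297-23555704) held 4 and 4 reads and the promoter region 0 and 2, so that Hist1h1d held 12 and 12 reads over 4 regions. Hist1h1t, the linker histone of the testis, had 2 promoter regions with no more than 2 reads, and Hist1h1e a single distal region with 2 and 0.

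H2A and H2B genes, whose products pair within the nucleosome, stood differently by name and by position. A region carried the name of 4 of 20 H2A genes and 8 of 19 H2B genes, against 5 of 6 genes for H1, 6 of 12 for H3 and 8 of 13 for H4. By position, a region lay within 1 kb of the start for 11 of 20 H2A and 10 of 19 H2B genes, against 3 of 6 for H1, 6 of 12 for H3 and 6 of 13 for H4. No order of the types thus held for both counts. The Hist2h2aa1 promoter region (chr3:96245312-96245707) was the best read of H2A, with 8 reads with Ad-Ets-1, 2 with Ad-GFP and 0 in the input. The ratio of 3.66 had an interval of 0.363 to 180.5. Its peak had a fold of 4.51 and a q of 0.00364 in the authors' deposited Ad-Ets-1 list, and a fold of 1.82 and a q of 0.764 in the Ad-GFP list. Only 14.4% of its 50-bp words occur once in the genome, and single words occur up to 5 times. Of the other H2A genes, Hist1h2aa held 2 and 0 reads and Hist1h2ah and Hist1h2ac each 0 and 2.

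Hist1h2bm had the best read H2B promoter. The region (chr13:21722177-21722792) covers most of the gene and held 4 reads with Ad-Ets-1, 8 with Ad-GFP and 0 in the input, a ratio of 0.458 (0.0414 to 3.20). A neighbouring region upstream, in the printed stretch with the octamer, held 2 and 0 reads. Hist1h2bj (chr13:22043030-22043479) held 1 read with Ad-Ets-1 and 4 with Ad-GFP, beside 2 in the input. The other H2B promoter regions held 0 to 2 reads in each library.

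Among genes of the core histone H3, no promoter region reached 5 reads. Hist1h3g (chr13:23535403-23535640) held 4 reads with Ad-Ets-1, 2 with Ad-GFP and 2 in the input, and a distal region of the same gene (chr13:23537887-23538135) held 4, 0 and 0 in the same order. Hist2h3b (chr3:96269038-96269275) held 2, 4 and 1 reads. At Hist1h3d and Hist2h3c1 both viruses gave 2 reads.

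H4 genes included Hist4h4, which lies apart from the other clusters. Its region (chr6:136803957-136804262) held 5 reads with Ad-Ets-1, 6 with Ad-GFP and 0 in the input, all of its 50-bp words occur once, and it was called in the Ad-Ets-1 list alone (fold 3.28, q 0.285). Similar reads in both libraries thus met a call in only 1 of the lists. Hist2h4 (chr3:96262941-96263178) held 3 and 4 reads. The 2 regions of Hist1h4i split by virus. Upstream of the start, in the printed region, 4 reads came with Ad-Ets-1 and 0 with Ad-GFP, while the region over the gene (chr13:22041101-22041364) held 0 and 4 reads and 1 in the input. Hist1h4c held 4, 0 and 1 reads in the printed region, and Hist1h4n (chr13:21831959-21832333) 0, 4 and 0, with 12.6% of its 50-bp words found once.

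Outside promoters, a distal region named Hist1h4m (chr13:21820008-21820342) had the lowest q of all histone peaks. It held 8 reads with Ad-Ets-1 and 0 in both other libraries, at least 1.22-fold higher than Ad-GFP when 0 is set to a floor of 3 fragments, with a deposited fold of 4.64 and a q of 0.00101. Only 19.6% of its 50-bp words occur once in the genome, and single words occur up to 76 times. Hist1h4d gave its name to 9 regions, which held 7 reads with Ad-Ets-1 and 16 with Ad-GFP. Of these, 5 are called intronic and lie within the gene model of Hist1h2be, among them chr13:23592501-23592831 with 4 and 2 reads. A distal Hist1h4d region (chr13:23578697-23578958) held 0 and 4.

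**Figure D2:**
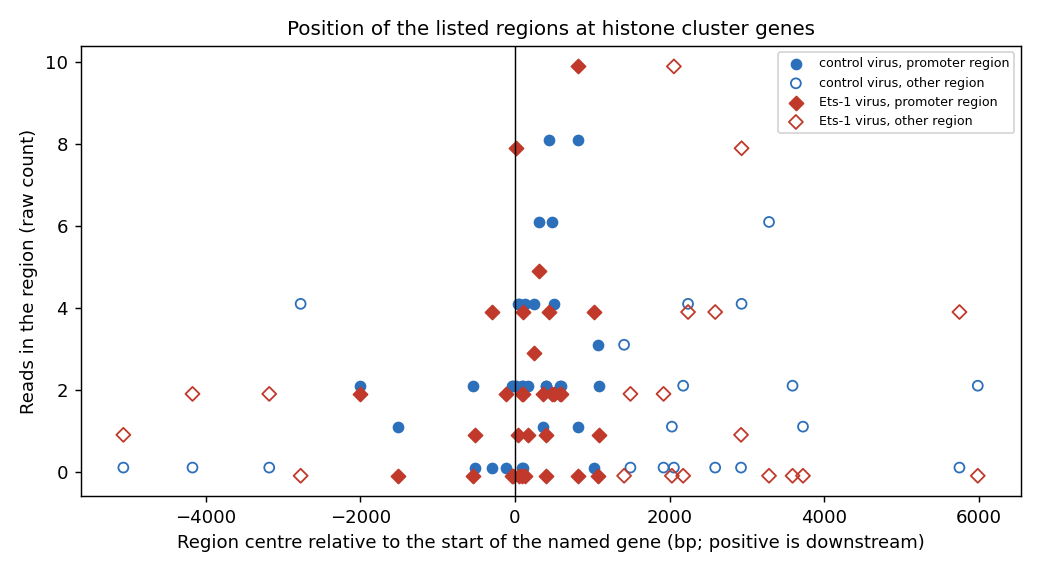
Raw reads of 51 histone regions (vertical axis, points moved up or down by 0.1 for visibility) against the distance of the region's centre from the start of the named gene (horizontal axis, bp, positive downstream). Filled marks are promoter regions and open marks other regions, diamonds Ad-Ets-1 and circles Ad-GFP, 1 library each. The regions with most reads lie at or downstream of the start, and 9 regions farther than 6 kb are not shown.

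The 28 regions outside promoters held 58 reads with Ad-Ets-1, 38 with Ad-GFP and 1 in the input, a ratio of 1.40 (0.758 to 2.64). Among them the 13 distal intergenic regions, a class singled out after its values were seen, held 29 and 8 reads. Their ratio was 3.32 (1.09 to 14.2), against 0.729 (0.724 to 0.734) for all distal intergenic regions. Without the Hist1h4m region, which alone holds 8 of those reads, 21 and 8 reads were left and the ratio was 2.40 (0.746 to 10.8). Without that region of repeated sequence the interval spans 1, and its lower end of 0.746 lies barely above the 0.729 of all distal intergenic regions. Of the 13 regions, 10 were called in the Ad-Ets-1 list alone, 3 in the Ad-GFP list alone and 0 in both. Regions are listed because they were called, so the read ratio in part repeats these calls and is no separate result. Over all 60 regions the sums were 123 and 118 reads, with a ratio of 0.955 (0.663 to 1.40).

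Histone promoter regions lay within and behind the start more often than promoter regions at large. Their centre was upstream of the start in 8 of 32 (25.0%, 11.5 to 43.4), against 63.0% of all promoter regions. The promoter annotation itself is uneven: at histone genes it ran from -1878 to 971 bp, positive downstream. The 63.0% is therefore no measure of a preference for upstream sequence, and the part of the annotation in it was not tested. Histone genes are short, with a median length of 735 bp among those named against 3666 bp for genes of all promoter regions, and 21 of the 32 regions overlapped coding sequence of a histone gene. In 9 of the 32, at least 2 histone gene starts lay within 500 bp, so the deposited name picks 1 of several neighbours. The median GC content of the central 250 bp was 53.8% at histone promoter regions and 43.6% over all promoter regions.

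Genes were then counted by their promoter peaks. A promoter peak in both lists was found for 9 of the 70 genes, in the Ad-Ets-1 list alone for 3 and in the Ad-GFP list alone for 12. Another 7 genes had regions outside promoters only. Of the 67 protein-coding histone genes, 12 had a promoter peak in the Ad-Ets-1 list (17.9%, 9.61 to 29.2), against 31.8% of all 21924 protein-coding genes. In the Ad-GFP list 21 had one (31.3%, 20.6 to 43.8), against 41.2%. Both histone shares were below the background, and in the Ad-Ets-1 list the interval did not reach it. A promoter peak here is a peak with a deposited promoter annotation. At histone genes this reached up to 2 kb upstream but no more than 1 kb downstream of a start. The sequence searched per gene was not matched between histone and other genes. Among genes that gave their name to any region, a denominator that already requires a listed region, the histone shares were not lower, with 12 of 31 histone genes (38.7%, 21.8 to 57.8) against 37.7% with Ad-Ets-1, and 21 of 31 (67.7%, 48.6 to 83.3) against 48.6% with Ad-GFP.

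**Figure D3:**
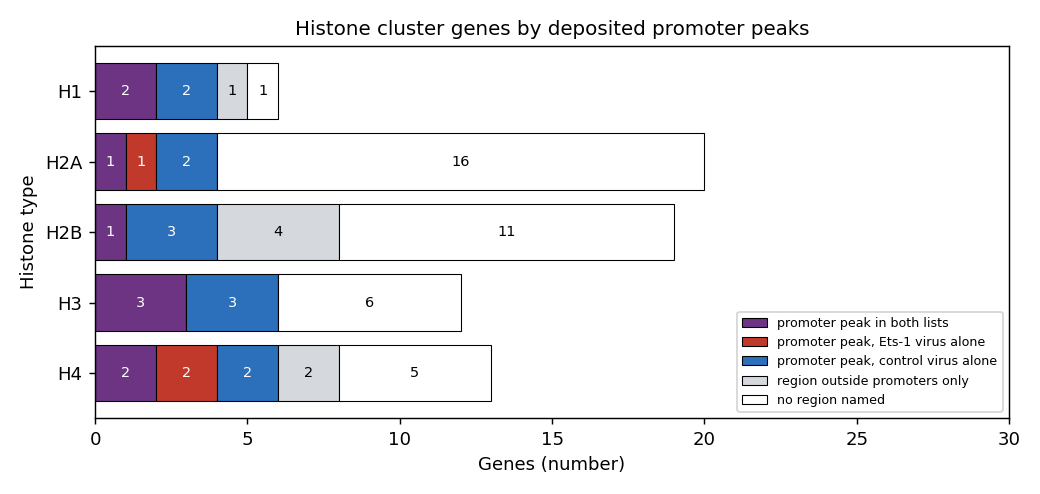
Number of histone cluster genes (horizontal axis) of each histone type by the state of their promoter in the deposited lists, for 70 genes of GENCODE M21 with 1 library per list. H2A has the most genes named for no region, 16 of 20, and H1 the fewest, 1 of 6.

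Counted by position instead of by name, histone gene starts had more regions than other starts. Windows of 1 kb to either side of the 70 starts covered 102675 bp and held 35 regions, or 34.1 per 100 kb (exact Poisson interval 23.7 to 47.4), against 17.5 per 100 kb (17.1 to 17.9) at all protein-coding starts. A peak of the Ad-Ets-1 list lay there for 24 of 70 histone genes (34.3%, 23.3 to 46.6) against 16.4%, and of the Ad-GFP list for 29 (41.4%, 29.8 to 53.8) against 20.5%. Counts by name and by position thus gave opposite orders against the background, but they use unlike windows. A promoter peak by name can lie up to 2 kb upstream of a start, and a peak by position lies within 1 kb of the GENCODE start. Between these counts the background of the Ad-Ets-1 list fell from 31.8% to 16.4%. A region has 1 name but can lie within 1 kb of several starts. The 24 histone genes rest on 17 regions called with Ad-Ets-1, and the 29 on 24 regions called with Ad-GFP. The intervals of both gene shares take genes as independent and are therefore too narrow. Per 100 kb of window, the listed regions at histone starts held 77.9 reads with Ad-Ets-1, 82.8 with Ad-GFP and 12.7 in the input. At protein-coding starts they held 34.8, 32.2 and 4.51. Reads outside listed regions are not counted. Higher sums in every library, input included, thus follow in part from the larger number of listed regions. Relative to input, the Ad-Ets-1 level at histone starts was 12.5 (6.55 to 25.5) and that at all protein-coding starts 15.7 (14.9 to 16.5), and with Ad-GFP 14.5 (7.74 to 29.7) and 15.8 (15.0 to 16.7). Between the viruses the ratio was 0.862 (0.540 to 1.34) and 0.990 (0.958 to 1.02). The intervals at histone starts hold the values at all protein-coding starts in each of these ratios.

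Of the 35 regions in these windows, 8 are not members, since the deposited table gives them no symbol. They held 22 reads with Ad-Ets-1, 13 with Ad-GFP and 6 in the input. Most were assigned to predicted noncoding genes. The region chr11:58953477-58953714, with 0 Ad-Ets-1, 2 Ad-GFP and 0 input reads, carries the identifier of Hist3h2bb-ps, a pseudogene of the Hist3 cluster. A region near the starts of Hist2h2ab, Hist2h2ac and Hist2h2be (chr3:96220402-96220791) held 7 Ad-Ets-1, 0 Ad-GFP and 3 input reads, and a region at Hist2h3b and Hist2h2bb (chr3:96269293-96269541) 7, 3 and 1. At Hist3h2a (chr11:58954974-58955279) the reads were 5, 4 and 1, so the Hist3 cluster, absent by name, was read too. The region at Hist2h2ab was called with Ad-Ets-1 alone but also held 3 reads in the input, where 99.9% of listed regions held at most 2.

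The peaks themselves were weak in both lists. The median deposited fold over local background was 1.86 for the 28 histone peaks of the Ad-Ets-1 list and for the 38 of the Ad-GFP list, against 1.86 and 1.87 over all peaks. A q of at most 0.05 was reached by 3 of 28 histone peaks with Ad-Ets-1, those of Hist1h4m, Hist2h2aa1 and Hist1h1d, or 10.7%, against 1.38% of all peaks of that list. With Ad-GFP 1 of 38 reached it, that of Hist1h1b, or 2.63%, against 0.827%. Of the 4 peaks, those of Hist1h4m and Hist2h2aa1 lie mostly in sequence with other copies, and that of Hist1h1b holds the GT repeat. The part of such copies in these calls was not tested. The largest q of each list, 0.820 and 0.764, was shared by 18 of 28 histone peaks (64.3%) against 85.1% of all, and by 26 of 38 (68.4%) against 88.3%.

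Histone genes resemble each other, and part of the sequence at their starts occurs more than once. Within 500 bp of the 70 gene starts, a median of 69.9% of 50-bp words occur once in the genome. The median was 100.0% for H1, 56.5% for H2A, 57.7% for H2B, 66.6% for H3 and 79.7% for H4. No word is unique at Hist1h2bq, Hist1h2ao, Hist1h2ap and Hist1h2br, which lie close together in Hist1. Genes named for a region and genes named for none differed little, with medians of 71.3% and 69.1%. Of the 8 genes with less than 10% of unique words, 4 were named and 2 had a promoter region, both called in the Ad-GFP list alone. Among the 60 regions, 32 consist of unique words throughout and 9 have less than 50% of them.

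**Figure D4:**
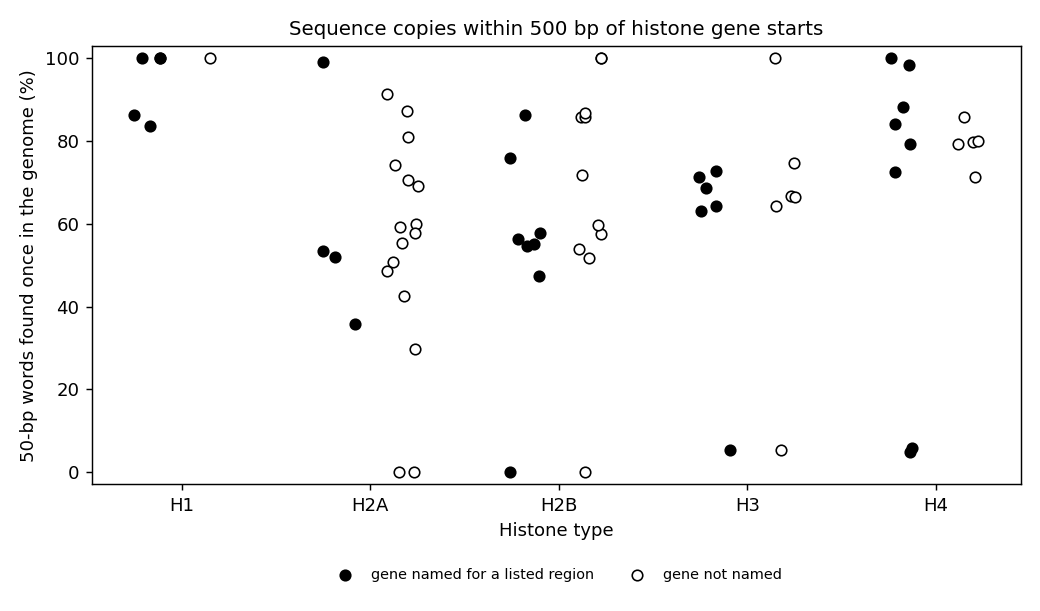
Share of 50-bp words within 500 bp of each histone gene start that occur once in GRCm38 (vertical axis, %), by histone type, for genes named for a listed region (filled) and for none (open). Points are single genes, their sideways spread within a type has no meaning, and the 4 genes at 0 belong to H2A and H2B.

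Sequence words known from histone promoters were present at the annotated starts and less so in the listed regions. RefSeq (GRCm38.p6) gave 62 promoters for 61 of the 70 genes, matched by current and older symbols, each running from 250 bases before to 50 after the start. Words were searched on both strands. CCAAT, bound by the factor NF-Y, was found in 53 of 62 (85.5%) against 37.4% of all 32851 RefSeq promoters, TATAAA in 35 (56.5%) against 13.6%, and the octamer ATTTGCAT, bound by Oct-1 (Pou2f1), in 14 (22.6%) against 1.74%. The octamer occurred in 7 H2A and 7 H2B promoters and in none of H1, H3 or H4. Windows of genes that lie head to head overlap, so 1 site can count for both genes: 18 of the 62 windows overlap another, and the 14 with the octamer lie at 11 separate places. All 6 H1, 17 H2A, 17 H2B and 10 H3 promoters held CCAAT, and 3 of 12 H4 promoters did.

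ETS words were absent from these promoters: 0 of 62 held CCGGAAGT or CAGGAAGT, with an exact 95% interval that reaches 5.78%, against 7.07% of all RefSeq promoters. The interval takes the windows as independent, but the 62 lie at 53 separate places. It is therefore too narrow and does not settle a difference from 7.07%. Median GC content was 45.3% in the histone promoters and 52.7% in all RefSeq promoters, and its part was not tested. In the central 250 bp of the 32 promoter regions CCGGAAGT was found in 0 and CAGGAAGT in 3, those of Hist1h1c, Hist1h1t and Hist1h4c. That share of 9.38% (1.98 to 25.0) compares with 1.81% of 41754 promoter regions. For either ETS word, the measure used for the RefSeq promoters, the histone share was the same and that of all promoter regions 2.25%. The interval holds this value, so no difference is shown. The octamer was also found in 3 of the 32 (9.38%, 1.98 to 25.0) against 1.73%, CCAAT in 31.2% against 31.0% of all promoter regions, and TATAAA in 18.8% against 19.6%. A word match is a description of the letters and not a binding site. The 3 regions with CAGGAAGT had 10, 2 and 4 reads with Ad-Ets-1 and 8, 2 and 0 with Ad-GFP, so their reads did not share a direction.

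Other genes of histone supply, taken from 3 lists, had promoter peaks in both libraries as well. Of 16 replication-independent histone genes, which are expressed outside replication as well, 11 were named in the table, and 4 had an Ad-Ets-1 and 3 an Ad-GFP promoter peak. Their promoter regions held 23 reads with Ad-Ets-1 and 14 with Ad-GFP (1.50, 0.570 to 4.71), with medians of 2.00 and 1.00 reads per region. H2afx, which marks broken DNA when phosphorylated, held 10 Ad-Ets-1, 1 Ad-GFP and 2 input reads (chr9:44334711-44335057), a ratio of 9.16 (0.513 to 217). H2afj had a region with 8, 2 and 0 reads (chr6:136808097-136808491) and another with 0, 6 and 0. The interval of H2afx spans 1, and the regions of H2afj lean in opposite directions.

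Factors of histone gene expression, from transcription to mRNA 3′ end formation, numbered 18 in the annotation, from 20 listed names. Of these 15 were named, 6 had an Ad-Ets-1 and 7 an Ad-GFP promoter peak, and their promoter regions held 29 and 42 reads (0.633, 0.314 to 1.33). The region of Hinfp, the activator of H4 genes, held 0 reads with Ad-Ets-1 and 8 with Ad-GFP (chr9:44298604-44299696), and that of Slbp 5 and 0 (chr5:33652260-33652889). Histone chaperones numbered 19 in the annotation, from 20 listed names. Of these 17 were named, 8 had an Ad-Ets-1 and 11 an Ad-GFP promoter peak, and the reads were 34 and 62 (0.502, 0.261 to 0.936). That interval holds the ratio of 0.786 over promoter regions with at most 1000 reads but not that of 0.948 over all of them. Medians per region were 0.500 and 2.00 reads for the factors and 0 and 2.00 for the chaperones, against 0 and 2.00 over all promoter regions. Among all named genes 37.7% had an Ad-Ets-1 and 48.6% an Ad-GFP promoter peak.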

How the data were processed

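Ets-1 ChIP-seq of Min6 cells was analysed from the peak lists of both precipitations and a table comparing them. Per the submitters' processing notes, reads on build mm10 passed through MACS2 2.1.0, BWA 0.7.12, Trimmomatic and FastQC, whose settings and order those notes leave out. The comparison table as deposited holds raw read counts of each library, RPM values (counts plus 1, scaled to the library), ratios of RPM and a log2 ratio. The peak lists as deposited give every peak its fold over background, a score, a −log10 p and a −log10 q, which served only to describe and filter peaks within a list. Annotation classes, nearest genes and distances are the deposited ones. Promoter regions are those with a deposited promoter annotation. At histone genes these lay at deposited distances of -1878 to 971 bp from the start, positive downstream. Histone regions at 1292 to 1929 bp were classed as downstream or distal intergenic.

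Of the 60 regions, 58 had gene coordinates equal to a GENCODE M21 histone gene. Library totals follow from counts and RPM. Of nonzero counts, 72.0% were even with Ad-Ets-1, 74.5% with Ad-GFP and 19.0% in the input, and mates of a pair were therefore taken as counted separately in the precipitated libraries. Their reads were turned into fragments, 2 reads each and rounded up, for intervals of ratios (exact conditional binomial, 95% level). A ratio against 0 was set at a floor of 3 fragments per library and is given as a lower bound, and none is given where both libraries hold at most 3 fragments. Shares have Clopper-Pearson intervals. Input reads were taken singly. The code was tested on simulated data.

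Groups follow the sample titles, with 1 library each. Copies of 50-bp words were counted over both strands of the GRCm38 chromosomes. Members, gene lists and comparisons were chosen with earlier results of these data known. Named regions are the 15 with most reads in a precipitated library with ties, those with a q of at most 0.05, and the best read promoter region of each cluster and type; others are examples chosen after their values were seen. A region that this rule selects is not reported here on its own, though sums and counts include it. Alternatives were other totals, minimum reads, promoter distances, annotation classes, q and fold thresholds and windows for words. Software was samtools 1.23.1, matplotlib 3.10.9, pysam 0.24.0, pandas 2.3.3, numpy 2.4.6, scipy 1.17.1 and Python 3.11.15.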

Additional observations from a re-analysis of the deposited data

How the results depend on the processing

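Removing regions with under 50% unique words and counting any peak within 1 kb of the GENCODE start were settings chosen after seeing the data. No paired analysis was possible because every group consists of a single library. The ratio of Ad-Ets-1 to Ad-GFP for histone promoter reads stayed between 0.7 and 0.955 under all 7 alternatives, the ratio to input between 12.4 and 25.0 with Ad-Ets-1 and between 17.7 and 26.2 with Ad-GFP under 5 each, all within the intervals reported. With intervals on reads instead of fragments the first was 0.528 to 1.05. Regions with 5 or more reads gave no ratio to input, which held 0 reads there. Genes with an Ad-Ets-1 promoter peak numbered 12 as deposited, 1 at a q of at most 0.05, 2 at a fold of at least 3 and 24 by any peak within 1 kb of the GENCODE start. For Ad-GFP they numbered 21 as deposited and 0 at either threshold, 20 within 1000 bp and 29 by position. Promoter regions at least 2-fold apart numbered 2 of 5 with a minimum of 5 reads, 0 of 1 with 10, 18 of 32 with none and 5 of 9 over all annotation classes. ETS words were found in 9.38% of region windows and in 0 of 62 RefSeq promoters. The cause of these changes was not tested. With a median of 2.00 reads per promoter region, most single regions are too thinly read to show a difference between the viruses.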
